A study of Homo sapiens with 6 samples.

Results

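Antibody genes of a myeloma cell line were followed through an in vitro reaction with the RNase IRE1. The 10 genes described are 5 immunoglobulin heavy chain constant genes (IGHA1, IGHA2, IGHM, IGHD and IGHG1), 3 light chain constant genes (IGKC, IGLC2 and IGLC3), and JCHAIN and MZB1. They were taken as a named list from the 57905 gene identifiers of the count files, by matching Ensembl identifiers to symbols. Of these 10 genes, 7 had at least 1 count and 6 were among the 14398 genes left by the low-count filter of edgeR.

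The RNA source was H929, a cell line of human multiple myeloma, that is, a culture of malignant plasma cells. For each of 3 IRE1-treated samples, total RNA was incubated for 1 h with the cytoplasmic part of recombinant human IRE1, and for each of 3 controls the enzyme was left out. Heat then inactivated the enzyme, and poly(A)-containing mRNA was sequenced, 1 library per sample. The reaction runs on extracted RNA of a single cell line, without cells. The labels do not say that replicates came from separate cultures, so the p-values measure the spread between these samples, which may be technical. For the level of a transcript in such bulk RNA, few cells with it and little of it per cell cannot be told apart.

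An antibody is built from heavy and light chains, each with a variable part that binds antigen and a constant part that sets the class. IGHM and IGHD encode the constant parts of IgM and IgD, IGHG1 that of IgG1, and IGHA1 and IGHA2 those of the IgA subclasses. IGKC encodes the constant part of the kappa light chain, and the IGLC genes those of lambda chains. JCHAIN encodes the joining chain that links IgA or IgM units into polymers, and MZB1 is an endoplasmic reticulum (ER) protein of plasma cells and marginal zone B cells that helps antibody assembly and secretion. IRE1 is the ER stress sensor that splices XBP1 mRNA and cuts other mRNAs, often at CUGCAG in a stem-loop. When a cut mRNA is purified by its poly(A) tail, its 5′ part is lost, so a gene count, which adds reads from both sides of a cut, falls only in part.

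The consensus hexamer, written CTGCAG as DNA (its reverse complement is the same word), was searched on the sense strand of the longest coding GENCODE transcript of each member. The windows of the expressed members that held it are printed because they are the places where the letters of an IRE1 site occur. Each is 30 bases, 5′ to 3′ on the transcript strand of GRCh37, with the hexamer in capitals.
IGHA1, exon 1 of 5, coding, chr14:106174947-106174976, minus strand: cccgctgagcctCTGCAGcacccagccaga
IGHA1, exon 3 of 5, coding, chr14:106173757-106173786, minus strand: ctggttcgctggCTGCAGgggtcacaggag
IGHA2, exon 3 of 3, coding, chr14:106053526-106053555, minus strand: ctggttcgctggCTGCAGgggtcacaggag
IGLC2, 3′ UTR, chr22:23243501-23243530, plus strand: gggagactagagCTGCAGgatcccagggga
IGLC3, 3′ UTR, chr22:23248857-23248886, plus strand: gggagactagagCTGCAGgatcccagggga
MZB1, exon 1 of 4, coding, chr5:138725373-138725402, minus strand: gcgctgtgatgcCTGCAGagctgtggctta
MZB1, exon 4 of 4, 3′ UTR, chr5:138723375-138723404, minus strand: ctccactcccgtCTGCAGgcagccaggagg

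The transcripts of JCHAIN (1286 bases) and IGKC (523 bases) held no CTGCAG, nor did that of IGHM. The hexamer is common. Of the longest transcripts of 14111 tested genes, 84.7% held it, and among tested transcripts within 20% of the member's length the share was 65.4% for JCHAIN, 32.9% for IGKC, 66.3% for IGHA1, 57.1% for IGHA2, 27.3% for IGLC2 and 51.5% for MZB1. A match is a description of the letters and not a cleavage site, and the folding of these windows was not examined.

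Pairs of members are near copies, which bears on how reads can be assigned. Over 1071 aligned exon bases, IGHA1 and IGHA2 were identical at 1031 (96.3%), and the longest exact run was 115 bases. IGHA1 has an insertion of 39 bases that IGHA2 lacks, at chr14:106174440-106174478 on the minus strand, and 30 of its bases are shown because they tell the IgA subclasses apart.
IGHA1 only, chr14:106174449-106174478: cctcaactccacctaccccatctccctcaa

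IGLC2 and IGLC3 differed at 1 of 462 bases. Of all exon windows of 76 bases, the read length, 80.4% in each of IGLC2 and IGLC3 also occurred elsewhere in the genome, each time in the other gene. The share of windows that occur anywhere else was 19.0% for IGHA1, 10.0% for IGHA2 and 46.0% for IGHG1, and 0% for IGKC, IGHM, IGHD, JCHAIN and MZB1. For IGHA1 the most frequent other place lay outside any annotated gene (114 occurrences for 199 windows). For IGHA2 it was IGHA1 (85 for 85 windows). Counts of the lambda pair are therefore uncertain between its genes, while the windows of IGKC, JCHAIN and MZB1 occur nowhere else in this genome. Read pairs without a unique alignment were not counted, so counts of genes with such shared windows may be too low. An overlapping gene in the annotation used for counting could still take reads. Of the 2367 identifiers that the annotation used here does not name, the one with most counts had 22147 to 28437 per library, more than IGKC in each, and whether it overlaps an immunoglobulin gene is not known here. The level of IGKC, its spread and the immunoglobulin share are given with that limit. IGHA1 also shares 310 exon bases with the long non-coding gene AL928768.3 on the same strand, which had 5 to 22 counts per library and was named after its values were seen.

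The libraries held 19615715 to 25678499 counts on genes, with the lowest total in IRE1-treated replicate 1. Plasma cell markers matched the label: 7 of the 8 chosen markers were tested, SDC1 had 19668 to 29285 counts and XBP1 47821 to 72278, while CD27 had at most 1. The B cell marker list summed to 2.14 to 2.73 CPM (counts scaled to a library total of 1000000 on genes), with MS4A1 at 0 or 1 and CD22 at 0. The T cell list (41.6 to 50.2 CPM) rested on CD3E, with 890 to 1063 counts, beside CD3D at 0 or 1. The myeloid list reached at most 1.95 and the erythroid list at most 0.186 CPM, and the epithelial list (56.4 to 69.1 CPM) rested on KRT18 and KRT8, with EPCAM at 0 to 2 counts. XBP1, the classical IRE1 substrate, had a gene-level log2 fold change of -0.09 ± 0.04 (SE), which did not pass the test (adjusted p = 0.143, quasi-likelihood test of edgeR, Benjamini-Hochberg). The paper reports that XBP1 was cut in this reaction, by fewer reads in exons upstream of its cleavage sites and lower qRT-PCR levels across them. A gene count adds all exons and is a weaker measure of a cut.

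H929 is known as a line of IgA kappa type, and the counts showed alpha heavy chain, kappa light chain and J chain transcripts. Levels were compared as normalized counts per kilobase of annotated exons, where each count was first scaled by the library's total and its TMM factor to a library of mean size. In the controls, JCHAIN had 55356 ± 1618 per kilobase (SD, n = 3), IGKC 10591 ± 2935, MZB1 8401 ± 199.95, IGHA1 232.6 ± 12.5, IGLC2 116.6 ± 9.53, IGHA2 108.1 ± 8.54 and IGLC3 15.3 ± 6.13. JCHAIN was thus 5.23 times as high as IGKC and 238 times as high as IGHA1, and IGKC was 45.5 times as high as IGHA1. IGHE, the IgE constant gene outside the 10, had 109.7 ± 16.9 per kilobase, near IGHA2 and IGLC2 and under IGHA1. The kappa variable gene IGKV3-15, which is not among the 10, stood higher still on this scale, at 81004 ± 1245 per kilobase, 1.46 times JCHAIN and 7.65 times IGKC. These levels were not corrected for read-length windows that occur elsewhere. Such windows were 74.0% for IGKV3-15, 80.4% for IGLC2, 19.0% for IGHA1, 10.0% for IGHA2, and 0% for JCHAIN and IGKC. The ratios and the order are given with that limit. The controls of IGKC (7401 to 13175 per kilobase) spanned those of MZB1 (8206 to 8605), and those of IGLC2 (106.2 to 124.8) overlapped those of IGHA2 (102.6 to 118.0), so neither of these neighbours differed beyond the spread. The other neighbours in this order did not overlap. The order of IGKC and MZB1 also hung on the length used. With the longest coding transcript of MZB1 (925 bases) in place of its 2286 exon bases, its controls stood at 20279 to 21267 per kilobase, above each control of IGKC.

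**Figure D1:**
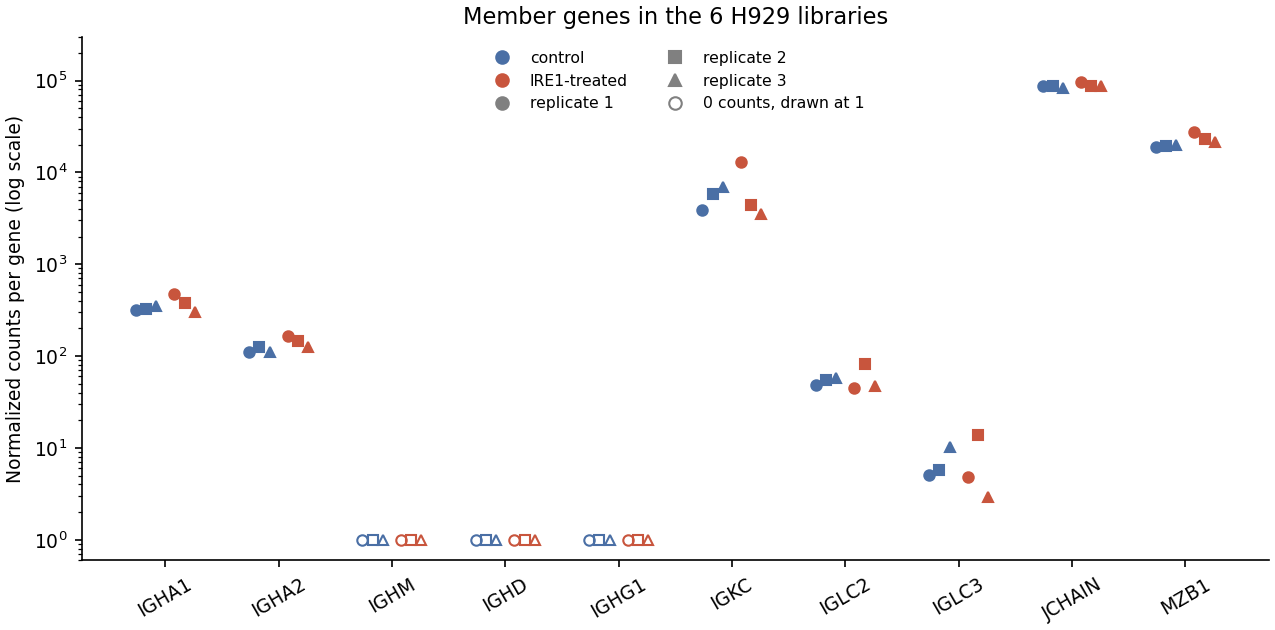
Normalized counts (log scale) of the 10 genes in each of the 6 libraries, with 3 controls and 3 IRE1-treated libraries per gene and a marker shape for each replicate number. JCHAIN lies highest, at 82692 to 96979, and IGHM, IGHD and IGHG1, drawn as open symbols at 1, had 0 counts in all 6 libraries.

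Among the heavy chains, the genes for IgM, IgD and IgG1 were not detected. IGHM, IGHD and IGHG1 had 0 counts in every library, and a count of 0 allows at most 3 counts, or 0.117 CPM in the deepest library and 0.153 in the shallowest. These limits cover counting error only. No fold change can be given for these genes.

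IGHA1 had 376, 335 and 341 counts in controls 1, 2 and 3, and 392, 354 and 313 in IRE1-treated replicates 1, 2 and 3. After normalization these were 318.0, 323.1 and 351.0 in the controls and 470.3, 374.1 and 304.0 in the treated libraries. IRE1-treated replicate 1 was the highest and replicate 3 the lowest of all 6, so the groups overlapped. The log2 fold change was 0.20 ± 0.12 (SE), which did not pass the test (adjusted p = 0.257, edgeR with Benjamini-Hochberg adjustment). Without IRE1-treated replicate 3 it was 0.36 and passed (adjusted p = 0.0110, edgeR).

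IGHA2 had 130, 131 and 108 counts in the controls and 139, 138 and 128 in the treated libraries, which gave normalized values of 109.9, 126.4 and 111.2 against 166.8, 145.8 and 124.3. The lowest treated library lay just under the highest control. Its log2 fold change was 0.32 ± 0.14 (SE; adjusted p = 0.0983, edgeR with Benjamini-Hochberg adjustment), and 0.44 without IRE1-treated replicate 3 (adjusted p = 0.0223). IGHA1 made up 74.0% ± 2.04 (SD, n = 3) of the counts on the IgA genes in the controls and 72.2% ± 1.45 in the treated samples. That difference of -1.80 percentage points had an exact two-sided permutation p of 0.3, where 3 against 3 cannot go below 0.1. Their transcripts share the hexamer of exon 3, and IGHA1 alone has one in exon 1.

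A further heavy chain gene outside the 10 was present. IGHE, the constant gene of IgE, had 154 to 247 counts per library, and its normalized values were 208.9, 164.9 and 158.5 in the controls and 222.0, 247.3 and 224.4 in the IRE1-treated libraries. All treated libraries lay above all controls (log2 fold change 0.37 ± 0.12, SE; adjusted p = 0.0319, edgeR with Benjamini-Hochberg adjustment). Of all tested genes, 19.1% were so separated and 10.3% were called higher. Of its 76-base windows 17.6% occur elsewhere, mostly in its pseudogene IGHEP1, and IGHE shares 441 exon bases with AL928742.12, so its count is uncertain. IGHE was the only constant gene outside the 10 with a mean of at least 10 counts. Of the 137 heavy chain variable genes, 11 had any count, and together they summed to 7 to 21 counts per library. The 2 with most counts, IGHV1OR15-1 and IGHV6-1, averaged 8 and 3.83 counts. The alpha constant genes, with 108 to 392 counts each, thus stood beside few counts on the variable genes of the same locus, as these files count them.

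By the counts in these files, kappa was the main light chain among the constant and the variable genes. IGKC made up 98.7% ± 0.280 (SD, n = 3) of the light chain constant counts in the controls and 98.5% ± 0.947 in the treated samples (exact two-sided permutation p = 0.9). Kappa variable genes took 99.94 to 99.96% of the light chain variable counts, and 1 gene, IGKV3-15, took 97.1 to 97.6% of all kappa variable counts. IGKV3-15 shares 74.0% of its 76-base windows with other places, mostly IGKV3D-15. The next kappa variable gene, IGKV3-7, averaged 648 counts. Of the lambda variable genes, IGLV3-9 and IGLV6-57 came first, with means of 8.5 and 3.83 counts. Of the read-length windows, 80.4% in each of IGLC2 and IGLC3 occur elsewhere, against 0% in IGKC. Read pairs without a unique alignment were not counted, so lambda constant counts may be too low and the IGKC share too high. This dominance of kappa also depends on what is counted as lambda. IGLL5, the immunoglobulin lambda like gene that shares 460 exon bases with IGLC1, had 6922 to 8408 counts per library, and with it on the lambda side the IGKC share was 31.8 to 60.8% over the 6 libraries.

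IGKC was the member that varied most among the better counted ones, and a single library set the direction of its change. It had 4577, 6072 and 6694 counts in the controls and 10866, 4157 and 3657 in the IRE1-treated libraries. Normalized, the controls had 3870, 5857 and 6891 and the treated libraries 13038, 4393 and 3552. IRE1-treated replicate 1 was 1.89 times as high as the highest control and 3.28 times the mean of the other 2 treated libraries, and replicate 3 was the lowest of all 6. The log2 fold change was 0.33 ± 0.33 (SE) and did not pass the test (adjusted p = 0.515, edgeR with Benjamini-Hochberg adjustment). Without IRE1-treated replicate 1 it turned to -0.48 and passed (adjusted p = 0.00492, edgeR), and without IRE1-treated replicate 3 it was 0.66 and passed in the other direction (adjusted p = 0.0364). No direction can be given for IGKC from these 6 libraries.

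The controls alone already differed 1.78-fold in IGKC. Of 4083 tested genes that averaged 1000 normalized counts or more, no gene had a higher coefficient of variation than IGKC in the controls (27.7%, against a median of 2.81%), and none had a higher one in the treated libraries (75.1%, median 4.96%). This comparison was added after the values of IGKC were seen. IGKV3-15, the kappa variable gene, had narrow groups in the same libraries, with 35195, 36265 and 35951 in the controls and 34262, 37570 and 35497 after IRE1 (log2 fold change -0.00 ± 0.05, SE; adjusted p = 0.991, edgeR with Benjamini-Hochberg adjustment). IGKC counts per 100 IGKV3-15 counts ranged from 11.0 to 19.2 in the controls and were 38.1, 11.7 and 10.0 in treated replicates 1, 2 and 3. IRE1-treated replicate 1 was also the library with the fewest counts and with the largest share of pairs without a unique alignment (12.6%, against 10.7 to 11.4% in the others), and the part of this in the IGKC value was not tested. None of the IGKC windows of single reads occurs elsewhere in this genome, but how read pairs of IGKC transcripts aligned was not examined. Whether the unnamed identifier with more counts than IGKC overlaps it is not known here.

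**Figure D2:**
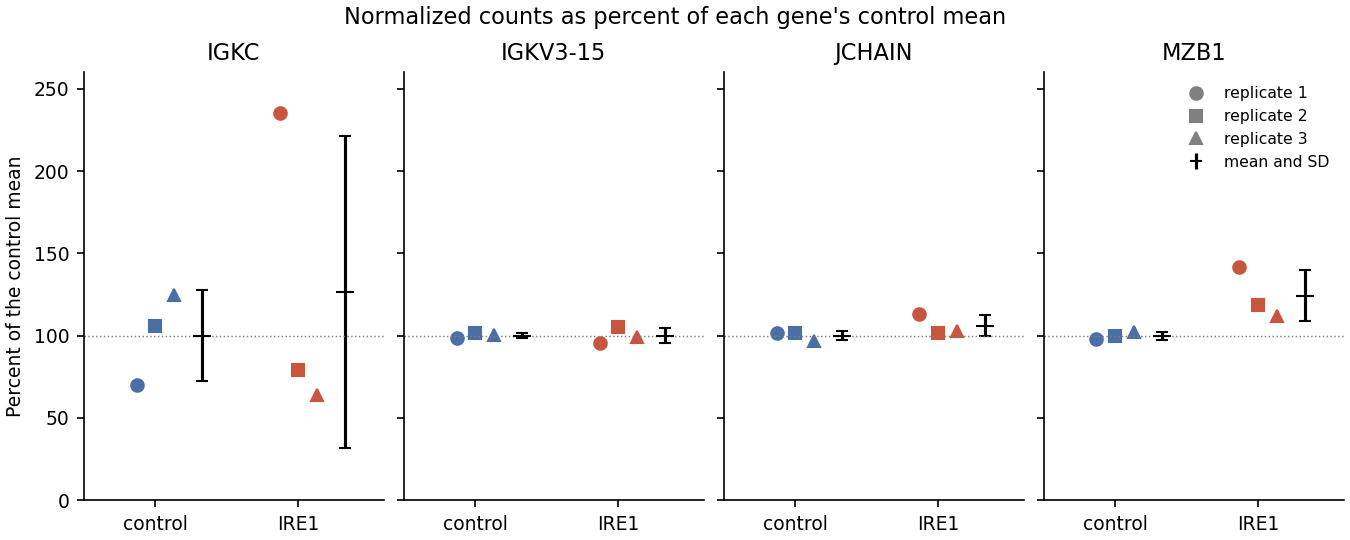
Normalized counts of IGKC, IGKV3-15, JCHAIN and MZB1 as percent of the control mean of the same gene, for 3 control and 3 IRE1-treated libraries, with the mean and SD beside them. IGKC scatters widely in both groups while IGKV3-15 stays near 100 percent, and all 3 treated libraries lie above all controls for MZB1 alone of these genes. The same separation was found in 19.1% of all tested genes.

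The lambda genes had few counts, which leave out read pairs without a unique alignment. IGLC2 had 58, 57 and 56 counts in the controls and 37, 77 and 49 after IRE1, which gave normalized values of 49.0, 55.0 and 57.6 against 44.4, 81.4 and 47.6. The treated libraries included both the highest and the lowest value (log2 fold change 0.11 ± 0.22, SE; adjusted p = 0.776, edgeR with Benjamini-Hochberg adjustment). IGLC3 had 6, 6 and 10 counts in the controls and 4, 13 and 3 after IRE1, did not pass the filter and was not tested. For both genes IRE1-treated replicate 2 was the highest library, and since they share most of their windows, these are not independent readings.

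JCHAIN, the most abundant member per kilobase, did not pass the test. It had 102846, 90278 and 80331 counts in the controls and 80825, 82172 and 90730 in the treated libraries. The normalized values were 86971, 87077 and 82692 against 96979, 86841 and 88124. Treated replicate 1 lay above all controls, and the other 2 treated libraries lay close to the controls. The log2 fold change was 0.08 ± 0.05 (SE; adjusted p = 0.247, edgeR with Benjamini-Hochberg adjustment). JCHAIN alone took 0.380 to 0.412% of all counts on genes, with means of 0.396% in the treated and 0.394% in the control samples, and more than all 387 annotated immunoglobulin genes together, which took 0.182 to 0.209%. These shares are of counts and not per length, and per kilobase IGKV3-15 alone was above JCHAIN. Read pairs without a unique alignment were not counted. Of the read-length windows, 74.0% in IGKV3-15 occur elsewhere, against 0% in JCHAIN, so the immunoglobulin share may be too low. IGLL5 is not among the 387 genes. The immunoglobulin share was 0.198% ± 0.00881 (SD, n = 3) in the controls and 0.195% ± 0.0137 in the treated samples (exact two-sided permutation p = 0.8). The 3 genes outside the immunoglobulin loci whose log2 normalized counts ran most closely with JCHAIN over the 6 libraries, among 10294 compared, were URI1 (Pearson's r = 0.995), METAP2 (0.995) and MORF4L1P1 (0.994). These libraries share normalization and depth, and 1 library, IRE1-treated replicate 1, was the highest for JCHAIN and for all 3 of these genes.

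MZB1 was the only one of the 6 tested members past the threshold, which 22.7% of all tested genes passed, and it rose. It had 22182, 19893 and 19110 counts in the controls and 22685, 21598 and 22162 after IRE1. The normalized values were 18758, 19188 and 19672 in the controls and 27219, 22825 and 21525 in treated replicates 1, 2 and 3, so each treated library was above each control. The treated mean was 124% of the control mean, with a log2 fold change of 0.31 ± 0.07 (SE; adjusted p = 0.00401, edgeR). MZB1 passed under every alternative tried. After removal of a trend with GC content and transcript length, the value was 0.18 (adjusted p = 0.0347, edgeR), and without IRE1-treated replicate 1 it was 0.21 (adjusted p = 1.53e-04). The rise is relative to all genes, since TMM takes most genes as unchanged.

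Read against all genes, 1 member higher and 0 lower of the 6 tested is not a result about the list. The 22.7% of all 14398 tested genes that passed comprised 10.3% higher and 12.4% lower in the IRE1-treated samples, and 19.1% had every treated library above every control, as MZB1 had. The median log2 fold change over the 6 tested members was 0.26, beside 0.00 over all tested genes. After removal of the trend with length and GC content, each of the 6 values was lower. They were then 0.045 for IGHA1, 0.15 for IGHA2, 0.11 for IGKC, -0.054 for IGLC2, -0.028 for JCHAIN and 0.18 for MZB1. No tested member was called lower at the gene level, by edgeR, by DESeq2 or by limma on the authors' CPM, with all 6 libraries in the fit. Without adjustment, 2 of the 6, MZB1 and IGHA2, passed 0.05 in edgeR. At least 22.7% of all tested genes passed this cut, since that share passed after adjustment, and the exact share was not counted. This count too is not read as a result about the list.

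**Figure D3:**
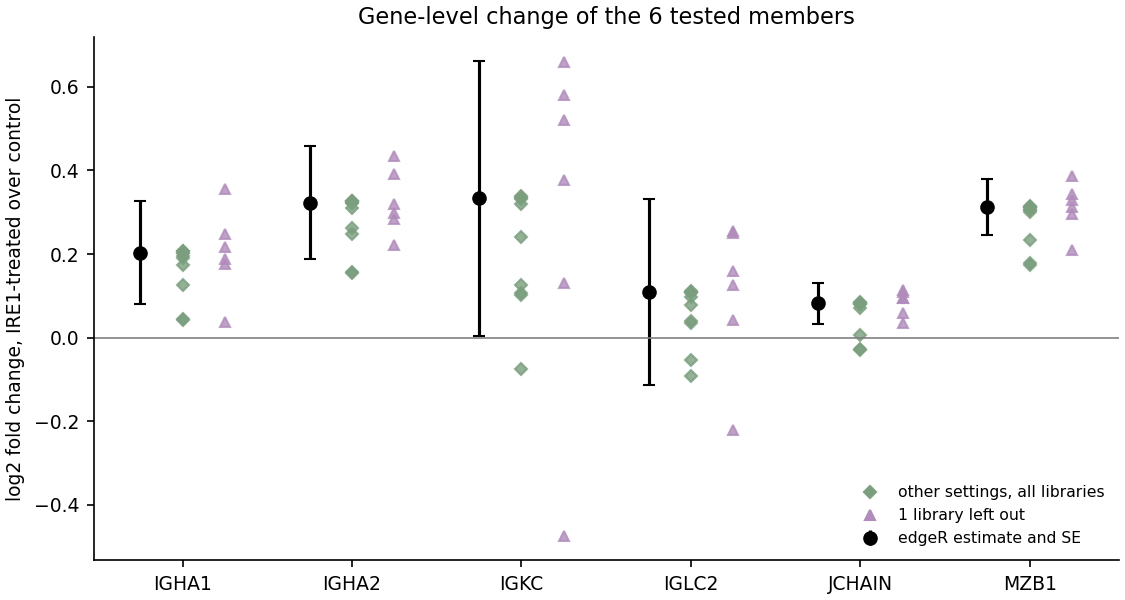
Gene-level log2 fold change of the 6 tested members, IRE1-treated over control, as the edgeR estimate with its SE (black), under the other settings with all libraries (diamonds) and with 1 library left out (triangles). MZB1 stays above 0 throughout, and IGKC runs from -0.48 to 0.66 as libraries are left out.

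The genes that fold, regulate and bind antibodies were taken as companions of the members, in 3 lists. In the list for folding and assembly in the ER, all 27 genes were tested, 7 rose, 5 fell and 15 did not pass (median log2 fold change 0.08), where 10.3% of all tested genes were higher and 12.4% lower. Over the 3 lists together, 10 genes were higher and 9 lower. With library size alone as the scaling these were 5 and 15, and after removal of the trend with length and GC content 4 were lower. PPIB, a proline isomerase of the ER, had normalized values of 26122, 25439 and 26439 in the controls and 35366, 33578 and 31236 after IRE1 (log2 fold change 0.36 ± 0.05, SE; adjusted p = 2.32e-04, edgeR). MANF, a secreted ER stress protein (0.31), and DNAJB11, a co-chaperone of BiP (0.26), also rose. SEL1L, the adaptor of the ER degradation ligase HRD1, fell from 6780, 6945 and 6148 to 4717, 5110 and 5772 (log2 fold change -0.35 ± 0.07, SE; adjusted p = 0.00191, edgeR). TXNDC5, a protein disulfide isomerase (-0.26), and CANX, the lectin chaperone calnexin (-0.26), also fell. For each of these 6 genes the groups did not overlap. The genes were picked by threshold and fold change in these same libraries, so this separation is no further support.

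In the list for expression and processing of immunoglobulin mRNA, 13 of 14 genes were tested, 3 fell, 0 rose and 10 did not pass (median -0.10), beside 22.7% of all tested genes called in either direction. The 3 were PRDM1, the plasma cell repressor BLIMP1 (-0.25 ± 0.05, SE), POU2F1, the octamer factor OCT1 (-0.24 ± 0.07), and ELL2, an elongation factor that favours the secreted form of heavy chain mRNA (-0.17 ± 0.05). PRDM1 had 10324, 9983 and 10015 in the controls and 8670, 8074 and 8791 in the treated libraries. POU2AF1, the octamer coactivator of B cells, had a value of 0.03 and IRF4, a plasma cell transcription factor, -0.10, and neither passed. The paper reports PRDM1 and IRF4 as cut in this reaction, by lower qRT-PCR levels in their upstream regions and across the predicted sites. A gene count adds all exons and is a weaker measure of a cut, so the IRF4 value does not show that its mRNA stayed uncut.

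Of the partners and receptors of immunoglobulins, 10 of 16 genes were tested, 3 rose, 1 fell and 6 did not pass (median 0.09), read against the same 22.7% of all tested genes. FCER2, the low affinity IgE receptor CD23 (0.34 ± 0.10, SE), CD79B, the signalling chain of the B cell receptor (0.26 ± 0.06), and TRIM21, the cytosolic antibody receptor (0.21 ± 0.06), were higher. TFRC, the transferrin receptor, which also binds polymeric IgA, fell from 1882, 1671 and 1636 to 1148, 1421 and 1548 (-0.33 ± 0.09).

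**Figure D4:**
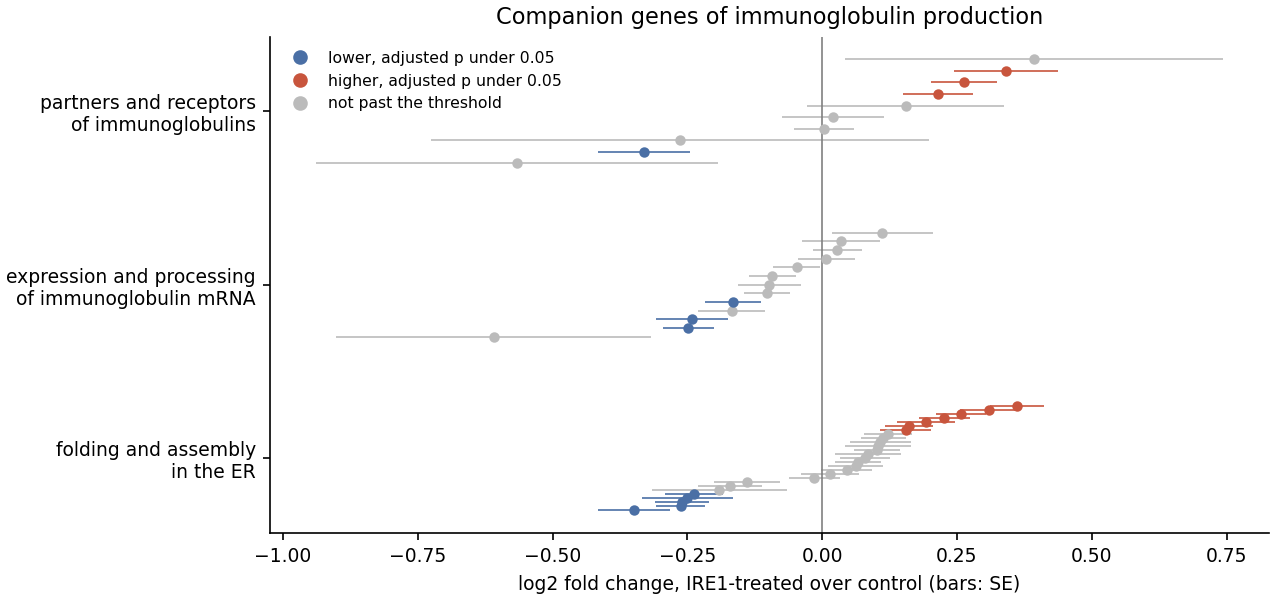
Log2 fold change (IRE1-treated over control, with SE) of each tested companion gene in 3 lists, coloured by whether it passed an adjusted p of 0.05 in edgeR. Called genes number 7 higher and 5 lower in the folding list, 0 and 3 in the expression list, and 3 and 1 among the partners and receptors, where 22.7% of all tested genes were called.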

How the data were processed

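Reads were trimmed by the authors (cutadapt 1.12), aligned with STAR 2.5.3a to GRCh37 (Ensembl release 87) and counted per gene with HTSeq 0.6.1p1, and the authors deposited the raw counts. The strand and overlap settings are not given in the sources used here, and the annotation used for counting was not used here, so reads shared with overlapping genes in it are not known. The 5 summary lines of HTSeq, 21.4 to 23.2% of all counts, were left out. A table of CPM, normalized and deposited by the authors for 12558 genes, 6 of the members included, served 1 alternative. Each sample was sequenced in a lane of its own, so lane and sample cannot be told apart.

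The counts of the 6 libraries were fitted without covariates by edgeR 4.0.16 (R 4.3.3), with its filter on low counts, TMM scaling, the quasi-likelihood test and Benjamini-Hochberg adjustment over all tested genes, threshold 0.05. The fitting steps were first run on simulated counts with planted changes. Shares were compared by exact permutation over samples (scipy 1.17.1). Alternatives were DESeq2 1.42.0, limma 3.58.1 on the authors' CPM (log2 after adding 1), library size only, upper quartile scaling, factors without immunoglobulin genes, no filter, at least 10 counts in every library, a loess trend (span 0.5) of transcript length and GC content removed, the replicate number as a block, and each library left out. Names, positions and transcripts are those of GENCODE release 44 on GRCh37, which names 55538 identifiers, and sequences were read from that genome.

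The genes named are all 10 members, other constant genes with a mean of at least 10 counts, the 2 variable genes with most counts per family, up to 3 companion genes per list and direction past the threshold, and the 3 genes most like JCHAIN among genes that average 100 normalized counts or more. Genes outside this rule are said to be so, or are markers or list members given as values. The members, lists and tests were chosen with earlier results of these data known.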

Additional observations from a re-analysis of the deposited data

How the results depend on the processing

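With all libraries in the fit, MZB1 ran from 0.17 to 0.32 on the log2 scale and passed each alternative. Members higher and lower numbered 1 and 0 in each alternative except 3. Without a filter on low counts 2 were higher, since IGKC also passed (0.32, adjusted p = 1.67e-08, edgeR). In that fit the prior degrees of freedom were infinite, against 11.8 with the filter. Leaving out IRE1-treated replicate 3 made 4 higher, and leaving out IRE1-treated replicate 1 made 1 lower. With each library left out in turn, members higher ranged from 1 to 4 and lower from 0 to 1, and the log2 fold changes from 0.037 to 0.36 for IGHA1, 0.22 to 0.44 for IGHA2, -0.48 to 0.66 for IGKC, -0.22 to 0.26 for IGLC2, 0.03 to 0.11 for JCHAIN and 0.21 to 0.39 for MZB1. The length and GC trend turned IGLC2 to -0.054 and JCHAIN to -0.028, and with the replicate block as well IGKC to -0.074, IGLC2 to -0.092 and JCHAIN to -0.029, none past the threshold, and the cause was not tested.

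Among the companions, 10 were higher and 9 lower. Library size alone gave 5 and 15, with a median over all genes 0.07 lower, the trend left 4 lower, and the trend with the replicate block 3. Leaving out a library gave 4 to 13 higher and 5 to 12 lower. The immunoglobulin share differed by -0.00363 percentage points (IRE1-treated minus control), 0.00513 with constant genes only, and -0.0109 to 0.00273 with a library left out, the IGKC share of light chain constant counts by -0.152 and -0.665 to 0.269, and the IGHA1 share by -1.80 and -2.88 to -0.849. The alternatives added to these shares, IGLL5 counted as lambda and IGKC left out of the immunoglobulin share, were chosen after seeing the data.

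The replicate numbers showed no positive pairing: deviations of same-numbered libraries correlated at -0.139, -0.104 and -0.332 over 10135 genes. Those of different-numbered libraries ran from -0.112 to 0.230. Deviations from a mean of 3 libraries are tied together, so these values cannot settle whether samples were paired. The labels do not say so either. The replicate block left MZB1 at 0.31 and IGKC at 0.10, and changed no call of a member. Sign flips of the numbered pairs gave p = 0.75, 1.0 and 0.5 for the immunoglobulin, IGKC and IGHA1 shares (exact permutation of 3 pairs, which cannot go below 0.25).

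IGLC3, IGLC2 and IGHA2 averaged 7, 55.7 and 129 counts per library, and the treated libraries of IGLC2 and IGKC had coefficients of variation of 35.5 and 75.1%. With 3 samples a group, a p that misses the threshold does not show that levels were equal.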
